A study of Mus musculus with 4 samples.

Results

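The genes described here are the 4 Egr zinc finger transcription factors, Egr1, Egr2, Egr3 and Egr4, and the 2 Nab corepressors, Nab1 and Nab2. They were found by gene symbol in the platform annotation, as 6 of the 18193 genes named on the array, and had 10 probe sets, 6 of Egr genes and 4 of Nab genes. The genes were chosen by their values in these same arrays, where Egr genes were lower in Srf-deleted cells. Their differences between the groups are therefore given as a description, without a test.

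Basal epidermal cells were sorted from mouse embryos at E16.5 on α6 integrin, an adhesion receptor of the basal layer, and on YFP. The cKO samples, titled Ko_1210 and KO_1261, were SRF fl/fl, ROSA26 YFP fl/fl and K14-Cre. The samples titled het_1210 and het_1261 carried SRF fl/+ with the same YFP reporter and the same Cre, per the design text, which calls them WT, and they are called het here. Both groups thus carried K14-Cre, which the keratin 14 promoter drives in basal keratinocytes, and het cells could lose 1 of their Srf alleles. Each group had 2 arrays. The title numbers recur in both groups: Ko_1210 and het_1210 are called the first pair, KO_1261 and het_1261 the second pair. The labels do not say what the numbers mark, nor whether a sample was 1 embryo or a pool, so the spread between arrays may be technical in part.

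Egr proteins are immediate early transcription factors: their genes are switched on within minutes of growth factor, stretch or stress signals, without new protein synthesis, and their zinc fingers bind GC-rich sites. SRF, serum response factor, is known to occupy CArG boxes in the promoters of Egr genes together with ETS-domain ternary complex factors, which ERK kinases phosphorylate. Nab1 and Nab2 bind Egr1, Egr2 and Egr3 and repress transcription from their target sites, and Nab2 is itself known as an Egr target. Egr4 lacks the domain that binds Nab proteins.

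The promoters are shown first, and the part of any motif in the differences between cKO and het was not tested. RefSeq promoter windows (GRCm38.p6, from 250 bases before a gene's start to 50 after it) were held for Egr2, Egr4, Nab1 and Nab2. The first 250 bases of a window are printed 5′ to 3′ on the gene's strand, with matches in capitals. In Egr2 the capitals mark the CArG boxes and the TGACG part of the cAMP response element on either strand, in Egr4 the TGACG matches, and in Nab1 the Egr site GCGNGGGCG on either strand. The Egr2 windows lie at chr10:67537316-67537565 and chr10:67537619-67537868 on the plus strand, before 2 of its 5 listed starts, called the middle and the downstream start. The Egr4 window lies at chr6:85513590-85513839 and the Nab1 window at chr1:52500449-52500698, both on the minus strand.
Egr2, middle start: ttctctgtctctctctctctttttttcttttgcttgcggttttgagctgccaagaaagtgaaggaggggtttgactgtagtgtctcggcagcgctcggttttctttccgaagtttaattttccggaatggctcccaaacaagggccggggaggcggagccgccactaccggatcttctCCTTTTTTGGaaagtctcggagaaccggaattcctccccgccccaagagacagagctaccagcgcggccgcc
Egr2, downstream start: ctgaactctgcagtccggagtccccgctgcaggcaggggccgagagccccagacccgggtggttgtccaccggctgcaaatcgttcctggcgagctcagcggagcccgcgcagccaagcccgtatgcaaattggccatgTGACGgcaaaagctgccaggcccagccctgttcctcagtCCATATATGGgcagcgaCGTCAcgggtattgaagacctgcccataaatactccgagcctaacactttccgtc
Egr4: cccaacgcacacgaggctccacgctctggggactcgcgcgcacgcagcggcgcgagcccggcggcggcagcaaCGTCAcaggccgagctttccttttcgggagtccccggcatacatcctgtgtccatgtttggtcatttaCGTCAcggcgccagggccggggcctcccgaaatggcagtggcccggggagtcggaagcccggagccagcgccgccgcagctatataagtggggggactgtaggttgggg
Nab1: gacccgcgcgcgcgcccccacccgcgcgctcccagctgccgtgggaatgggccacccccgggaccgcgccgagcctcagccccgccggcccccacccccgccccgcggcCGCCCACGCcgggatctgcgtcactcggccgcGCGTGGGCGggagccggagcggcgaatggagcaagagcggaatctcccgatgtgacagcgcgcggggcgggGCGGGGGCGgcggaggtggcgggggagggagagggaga

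Egr2 had 2 distinct CArG boxes, CCTTTTTTGG at chr10:67537494-67537503 and CCATATATGG at chr10:67537797-67537806. The first lay at positions -72 to -63 from the middle start, where position 0 is the first transcribed base. The CCATATATGG box fell in 3 overlapping windows, at -72 to -63 from the downstream start shown here and at -73 to -64 and -133 to -124 from the other two. A CArG box was present in 1.63% of all 32851 windows searched. The windows of Egr4, Nab1 and Nab2 held no match to it. The ETS core, searched as CCGGAA or CAGGAA on both strands, stood on both sides of the CCTTTTTTGG box, at positions -131 to -126, -129 to -124 (these 2 overlap on opposite strands) and -48 to -43. Upstream of the CCATATATGG box an ETS core lay at -167 to -162 from the downstream start. That core was present in 41.4% of all windows. Egr4 held 2 TGACG matches, as did Egr2 around its CCATATATGG box, against 20.8% of windows with at least 1. A TGACG match also lay in the Nab1 window, at positions -123 to -119, where it is printed in lower case. The whole palindrome TGACGTCA, found in 1.79% of windows, was in none of the windows of these genes. The Nab1 window held 3 Egr sites, where 5.55% of windows had any and 0.195% had 3 or more. In Nab2 the motifs searched gave 1 ETS core, at positions -171 to -166. A match describes the letters of a window, not the binding of a factor.

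**Figure D1:**
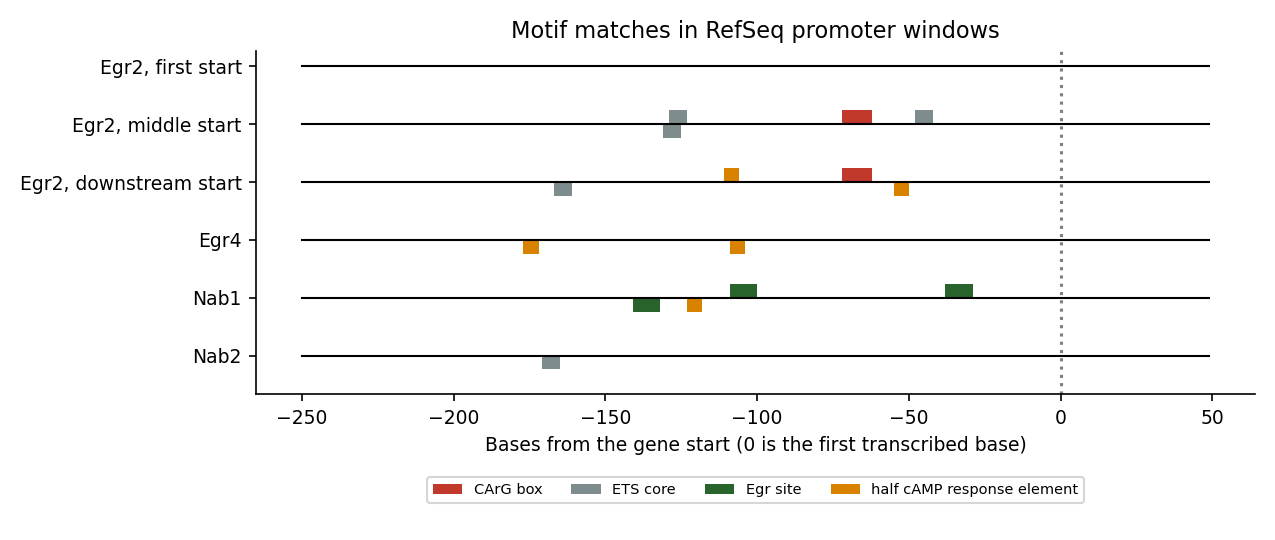
Matches to the motifs along RefSeq promoter windows, in bases from the gene start, drawn above the line for the gene's own strand and below it for the other. The CArG boxes of Egr2 stand at -72 to -63 from 2 of its starts, and Nab1 holds 3 Egr sites.

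The array signals were MAS5 values on a linear scale, which combine the probes of a probe set. The signal of 1 probe set is not comparable with that of another, so each gene is compared only with itself across arrays. Differences are cKO minus het of log2(signal + 1), taken within the first and within the second pair, and a summary difference is the mean of both. Probe sets whose mean log2 signal over the 4 arrays lay above the median of all probe sets, a signal of 65.9, were tested in fits across the array. Of the 10 probe sets 9 passed this filter, and that of Egr4 did not. Fewer cells that express a gene and less RNA per cell cannot be told apart in such bulk samples.

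Srf, the deleted gene, checks the labels. Its brighter probe set had signals of 47.9 and 80.4 in Ko_1210 and KO_1261, against 834 and 1108 in het_1210 and het_1261. Median signals over the array ranged from 63.7 to 82.5, and the trimmed mean was 500.0 on each array. Poly-A spike-in controls, added before labelling, averaged 3057 and 3456 on Ko_1210 and het_1210 and 1215 and 1412 on KO_1261 and het_1261 (geometric means of 12 probe sets). The pairs thus differed in these spike-ins, and every difference is given within each of them. Basal markers were bright on all 4 arrays, with Krt5, a keratin of the basal layer, at 50933 and 35314 in Ko_1210 and KO_1261, against 57958 and 36834 in het_1210 and het_1261.

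Egr1, the most widely studied member, had signals of 2742 in Ko_1210 and 4111 in KO_1261, against 7706 in het_1210 and 27858 in het_1261. Both cKO arrays lay below both het arrays, and the het arrays lay further apart than the cKO arrays. The mean was 3427 ± 968 in cKO and 17782 ± 14249 in het (SD, n = 2 each). The log2 difference was -1.49 within the first pair, a signal 2.81-fold lower in Ko_1210 than in het_1210. Within the second pair it was -2.76, or 6.77-fold lower in KO_1261 than in het_1261. The mean difference was -2.13.

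Egr2, also called Krox20 and known for hindbrain patterning and for the myelination of peripheral nerve, had the largest mean difference of the 6 genes, -2.92. Its brighter probe set had signals of 160 in Ko_1210 and 130 in KO_1261, against 545 in het_1210 and 2211 in het_1261. The cKO arrays were close to each other, and het_1261 stood far above the other 3 arrays. The difference was -1.76 within the first pair and -4.08 within the second pair, that is, 3.40-fold lower in Ko_1210 than in het_1210 and 16.9-fold lower in KO_1261 than in het_1261. The other Egr2 probe set gave 165 and 104 in Ko_1210 and KO_1261, against 531 and 1759 in het_1210 and het_1261. Its differences, -1.68 and -4.07, lay within 0.1 log2 units of those of the brighter one. Both probe sets were designed on the same mRNA record, so they are not independent readings.

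Egr3, a factor of muscle spindles, neurons and lymphocytes that is itself inducible, differed from Egr1 and Egr2 in how even its brighter probe set was among het arrays. That probe set had signals of 364 in Ko_1210 and 258 in KO_1261, against 1047 in het_1210 and 1090 in het_1261. The groups did not overlap, and the het arrays were nearly equal. The mean was 311 ± 74.9 in cKO and 1069 ± 30.1 in het (SD, n = 2 each). The differences were -1.52 within the first pair and -2.08 within the second pair. The dimmer Egr3 probe set had 90.7 and 41.0 in Ko_1210 and KO_1261, against 148 and 92.0 in het_1210 and het_1261. There the groups were barely apart, because Ko_1210 lay just under het_1261, and the differences of -0.70 and -1.15 were smaller than those of the brighter probe set. KO_1261 was below the filter on this probe set, and the het arrays were not nearly equal there.

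Egr4, an Egr factor known from neurons and germ cells, had signals of 8.08 in Ko_1210 and 7.64 in KO_1261, against 9.28 in het_1210 and 62.4 in het_1261. All 4 lay below the filter and het_1261 stood apart from the other arrays. At such low signals the sizes of the Egr4 differences, -0.18 within the first pair and -2.87 within the second pair, are imprecise.

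**Figure D2:**
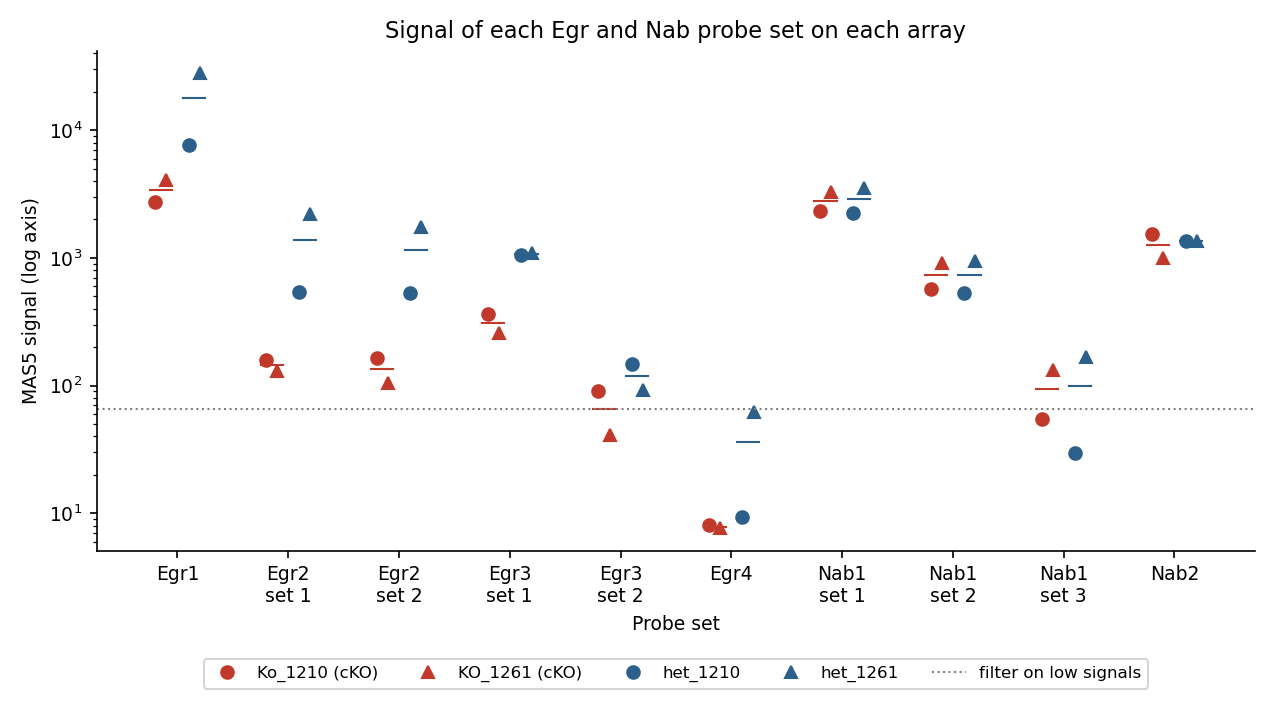
MAS5 signal on a log axis of each Egr and Nab probe set, with a point for each array, a bar at each group's mean (n = 2) and a dotted line at the filter of 65.9. On all 6 Egr probe sets the cKO arrays lie below the het arrays, while the groups overlap on all 4 Nab probe sets.

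Nab1, a corepressor expressed in many tissues, had 3 probe sets, and on none of them did the groups separate. The brightest had signals of 2335 in Ko_1210 and 3296 in KO_1261, against 2252 in het_1210 and 3542 in het_1261. Its differences were 0.05 and -0.10, with a mean of -0.03 that turned to 0.10 under median centring. The next probe set gave 573 and 907 in Ko_1210 and KO_1261, against 534 and 948 in het_1210 and het_1261, with differences of 0.10 and -0.06. On all 3 Nab1 probe sets both arrays of the second pair lay above both of the first, as on 34.6% of tested probe sets. The dimmest, with signals from 54.9 to 132 in cKO and from 29.8 to 168 in het, lay below the filter on both arrays of the first pair.

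Nab2, the corepressor that Egr factors are known to induce, had signals of 1536 in Ko_1210 and 994 in KO_1261, against 1346 in het_1210 and 1366 in het_1261. The het arrays were nearly equal and lay between the cKO arrays. The difference was 0.19 within the first pair and -0.46 within the second pair, and its mean of -0.13 was smaller than the gap of 0.65 between them. Nab2 thus had no direction common to both pairs, while the 3 Egr genes that passed the filter were lower in both.

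Of the 6 Egr probe sets, that of Egr4 included, 6 were lower within both pairs, 6 had both cKO arrays below both het arrays and 4 were more than 2-fold lower within both pairs. Over all 22518 tested probe sets these shares were 29.1%, 10.4% and 0.226%. Since Egr genes were chosen for this difference, nothing is read from the comparison of these counts. Of the 4 Nab probe sets, 0 were lower within both pairs, and on 4 the sign differed between the pairs. Most of these 4 belong to Nab1. The share of all tested probe sets whose sign differed was not counted, so nothing particular to Nab genes is read from this count. For scale, limma without a block passed 0 of 22518 probe sets between cKO and het (0% of those tested, with 108 at an unadjusted p under 0.05). With the title number as a block limma passed 194, of which 112 were lower (0.497% of those tested) and 82 higher (0.364%). Under median centring that fit passed 35 lower and 74 higher.

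**Figure D3:**
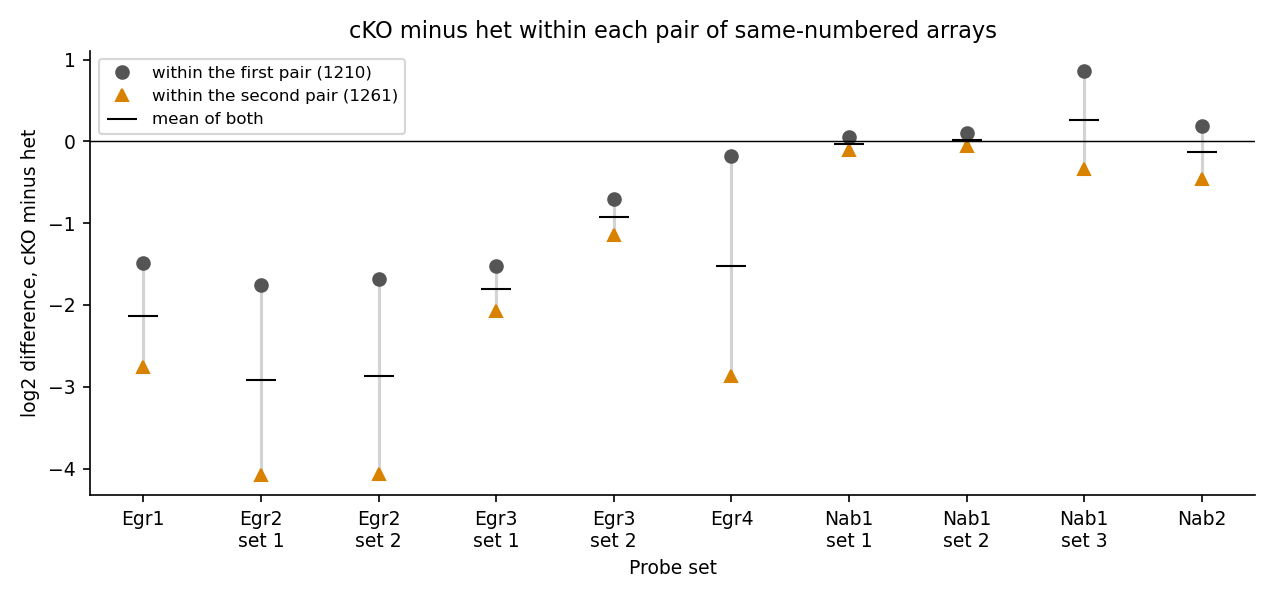
The log2 difference, cKO minus het, of each probe set within the first pair (circles) and within the second (triangles), with a bar at the mean of both. Each point compares 1 array with 1 array; Egr differences are all below 0, Nab differences straddle 0, and the triangle lies below the circle on all 10 probe sets.

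The differences were more negative within the second pair than within the first pair on 10 of 10 probe sets. These probe sets belong to 6 genes and share the same 4 arrays, so they are not independent readings. The share of all tested probe sets with this direction was not counted, so nothing particular to these genes is read from it. The gap was -1.27 for Egr1, -2.32 and -2.38 for the Egr2 probe sets, -0.55 and -0.45 for those of Egr3 and -2.70 for Egr4. Among tested probe sets the median size of this gap was 0.31, and 8.61% had a gap larger than 1. With 1 array per group in each pair the gap itself could not be tested.

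How the genes differed between the pairs was not used to choose them and could be tested, with group in the fit. Egr1 was higher in the second than in the first pair by 1.22 ± 0.17 on the log2 scale (limma, SE, adjusted p = 8.53e-07), with differences of 0.58 within cKO and 1.85 within het. Egr2 was higher by 0.86 ± 0.29 on its brighter probe set (limma adjusted p = 0.0212), yet the within-group differences had opposite signs, -0.30 in cKO and 2.02 in het, and the other Egr2 probe set did not pass (limma adjusted p = 0.174). The Egr3 probe sets did not pass, at -0.22 ± 0.21 and -0.90 ± 0.45 (limma adjusted p = 0.438 and 0.122), although the dimmer one did under median centring (-1.15, adjusted p = 0.0429) and quantile normalization (-1.17, adjusted p = 0.038). The calls of Egr1 and Egr2 ended with a robust prior (limma adjusted p = 0.268 and 0.655) and with no variance trend (0.0832 and 0.313), and that of Egr2 also under median centring (0.147). These fits leave 1 residual degree of freedom per probe set.

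All 3 Nab1 probe sets were higher in the second pair, by 0.58 ± 0.15, 0.74 ± 0.19 and 1.86 ± 0.48 (limma adjusted p = 0.00342, 0.00254 and 0.0028), in both cKO and het. The dimmest, at 1.86, lay below the filter on both arrays of the first pair. It was tested only through its signals in the second pair, so the filter favoured this difference and nothing is read from its call. With the robust prior all 3 still passed (limma adjusted p from 0.00216 to 0.00428). With no variance trend only the dimmest did (0.0304, against 0.109 and 0.0709), and under median centring the brightest did not (0.0856). Nab2 did not pass, at -0.30 ± 0.18 (limma adjusted p = 0.197), except under median centring (-0.55, adjusted p = 0.0202), where the median of all tested probe sets was itself -0.24. In all, 5 of the 9 tested probe sets were called higher and 0 lower, where 19.9% of all tested probe sets were called higher and 14.7% lower. Median centring turned that background to 3010 higher and 6370 lower, and quantile normalization to 3868 and 4401. The 5 calls include all 3 Nab1 probe sets, the dimmest among them, and are not independent readings. Nothing about the genes as a group is therefore read from this count.

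**Figure D4:**
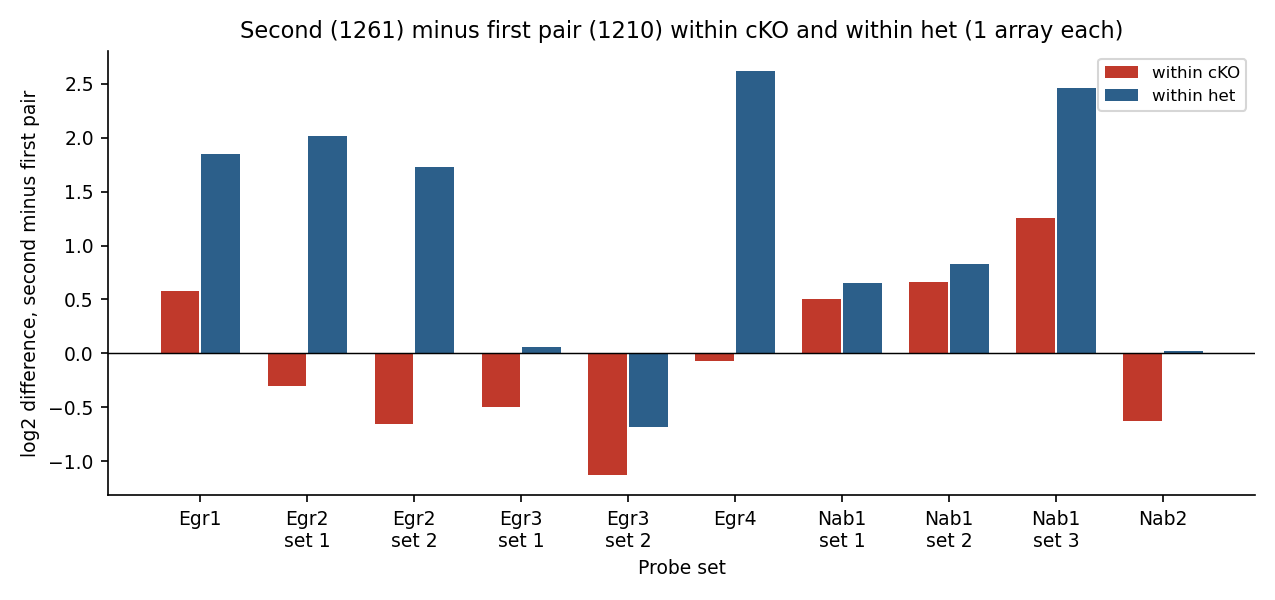
Bars give the log2 difference, second pair minus first pair, of each probe set within cKO and within het, each from 1 array against 1 array. Egr1, Egr2 and Egr4 were higher in het_1261 than in het_1210 by 1.73 to 2.62, Egr2 had the opposite sign within cKO, and Nab1 was higher in the second pair within both groups.

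Across the 4 arrays the tested gene most like Egr1 in pattern was Egr2, and that most like Egr2 was Egr1, out of 11054 other tested genes. Likeness was the Euclidean distance between log2 values, each gene centred on its own mean, and was 1.02 between them, against a distance of 2.53 from a flat pattern for Egr1 and 3.26 for Egr2. Egr4, which did not pass the filter and was not ranked, lay nearer to Egr1, at 0.93, and at 1.47 from Egr2. After Egr2, the tested genes nearest to Egr1 were the homeobox gene Msx3 (1.18) and Gm13306 (1.20). After Egr1, the tested genes nearest to Egr2 were the protease gene Prss22 (1.31) and Fblim1 (1.53), an adhesion linker of filamin. Msx3 was below 65.9 on both cKO arrays, Fblim1 on KO_1261, and Gm13306 on both arrays of the first pair. The genes nearest to Egr3 were Gpihbp1 (0.19), an endothelial lipase anchor, Ptges3l (0.20) and Notum (0.27), a Wnt deacylase. These 3 had signals of 33.4 to 46.2 in cKO, below the filter, and 111 to 146 in het. Those nearest to Nab1 were Clk4, Luzp1 and Zmym4 (0.04 to 0.05), and those nearest to Nab2 were Troap, Cerk and Slc25a14 (0.05 to 0.07). These genes were ranked over only 4 arrays that also separate by pair, and the Egr genes were chosen for part of this pattern.

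The regulators that act on Egr promoters were compared next, from lists chosen with earlier results of these data known. Of 6 genes for SRF, its MRTF coactivators and the ternary complex factors, only Srf passed with the block, at -3.93 ± 0.26 (SE, limma adjusted p = 1.18e-12, and 0.169 with no variance trend). It was lower in both cKO arrays, and the background of genes called lower was 0.624%. The coactivators Mrtfa, at -0.04 ± 0.20, and Mrtfb, at -0.11 ± 0.16, did not pass, nor did the ternary complex factors Elk1 (-0.21 ± 0.44), Elk3 (0.00 ± 0.39) and Elk4 (0.35 ± 0.16). Of 12 tested genes from the EGF receptor to ERK, the pathway that phosphorylates these factors, 0 passed in limma in either fit, 9 were higher and 3 lower, and the median was 0.12. The receptor gene Erbb3 differed by 0.23 ± 0.15 and the kinase genes Araf and Braf by -0.22 ± 0.21 and 0.20 ± 0.21. Over all 11055 tested genes the median was -0.02 and 53.8% were lower.

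NuRD, a chromatin remodelling and deacetylase complex, is known to bind Nab2 through its helicase Chd4. Of 12 tested subunit genes 0 passed in limma in either fit, 7 were higher and 5 lower, with a median of 0.12. Chd4 had signals of 2184 and 2364 in Ko_1210 and KO_1261, against 1433 and 1758 in het_1210 and het_1261. Its groups did not overlap, but its difference of 0.52 ± 0.16 did not pass (limma with the block, adjusted p = 0.158). Gatad2b (0.22 ± 0.18) and Mbd2 (0.20 ± 0.15) did not pass either. Of 10 tested zinc finger factors that also bind GC-rich sites, 0 passed in limma in either fit, 7 were higher and 3 lower, with a median of 0.08. Among them Sp3 differed by 0.27 ± 0.15, Klf13 by 0.19 ± 0.16 and Klf2 by 0.67 ± 0.33, the last with 1.33 within the first pair and 0.01 within the second pair.

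Of 23 tested genes reported elsewhere as Egr targets, 12 were higher and 11 lower, with a median of 0.02, and 2 passed in limma with the block. F3, which encodes tissue factor, the trigger of blood coagulation, fell by 0.86 ± 0.21 (SE, limma with the block, adjusted p = 0.0312). Its signals were 213 in Ko_1210 and 807 in KO_1261, against 321 in het_1210 and 1760 in het_1261. F3 was thus lower in cKO within each pair, while the groups overlapped. Gadd45b, a stress-induced gene, rose by 0.76 ± 0.15 (adjusted p = 0.00547), with signals of 3748 and 6267 in Ko_1210 and KO_1261, against 1884 and 4357 in het_1210 and het_1261. Its groups overlapped too, since Ko_1210 lay below het_1261. Both calls held with the robust prior (limma adjusted p = 0.0476 and 0.012) and ended with no variance trend (0.736 for each) and without the block. Thbs1, thrombospondin, differed by -0.61 ± 0.22 (-0.03 and -1.20) and did not pass. Genes called higher made up 0.253% of those tested.

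Most other immediate early genes were not lower in cKO. Of 22 tested, 17 were higher and 5 lower in cKO, with a median of 0.22 (0.32 within the first pair and 0.12 within the second pair), and 5 rose in limma with the block while 0 fell. Of all tested genes 0.253% were called higher in that fit. Arc, also listed, fell below the filter and was not tested. It had signals of 12.2 and 44.3 in Ko_1210 and KO_1261, against 14.3 and 489 in het_1210 and het_1261, and was thus lower within both pairs (-0.21 and -3.43). Jun, an AP-1 subunit, differed by 2.29 within the first pair and 0.23 within the second pair, Dusp1, a phosphatase of MAP kinases, by 2.65 and 0.26, and Zfp36, a protein that destabilises mRNA, by 2.51 and 0.22. Atf3 and Ier3, named after their values were seen, completed the 5. With the robust prior 0 of the 5 passed (limma adjusted p from 0.151 to 0.872). On het_1210 these genes were low: Dusp1 had signals of 13355 in Ko_1210 and 17778 in KO_1261, against 2122 in het_1210 and 14796 in het_1261. Of the 22 genes, 18 were lowest on het_1210, as were 30.2% of all tested genes. Egr1, Egr2 and Egr4 were also lower on het_1210 than on het_1261. Egr1 and Egr2 were lower still on both cKO arrays. Egr4 was barely so, with 8.08 and 7.64 in Ko_1210 and KO_1261 against 9.28 in het_1210, all below the filter. The part of het_1210 in the smaller Egr differences within the first pair was not tested.

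**Figure D5:**
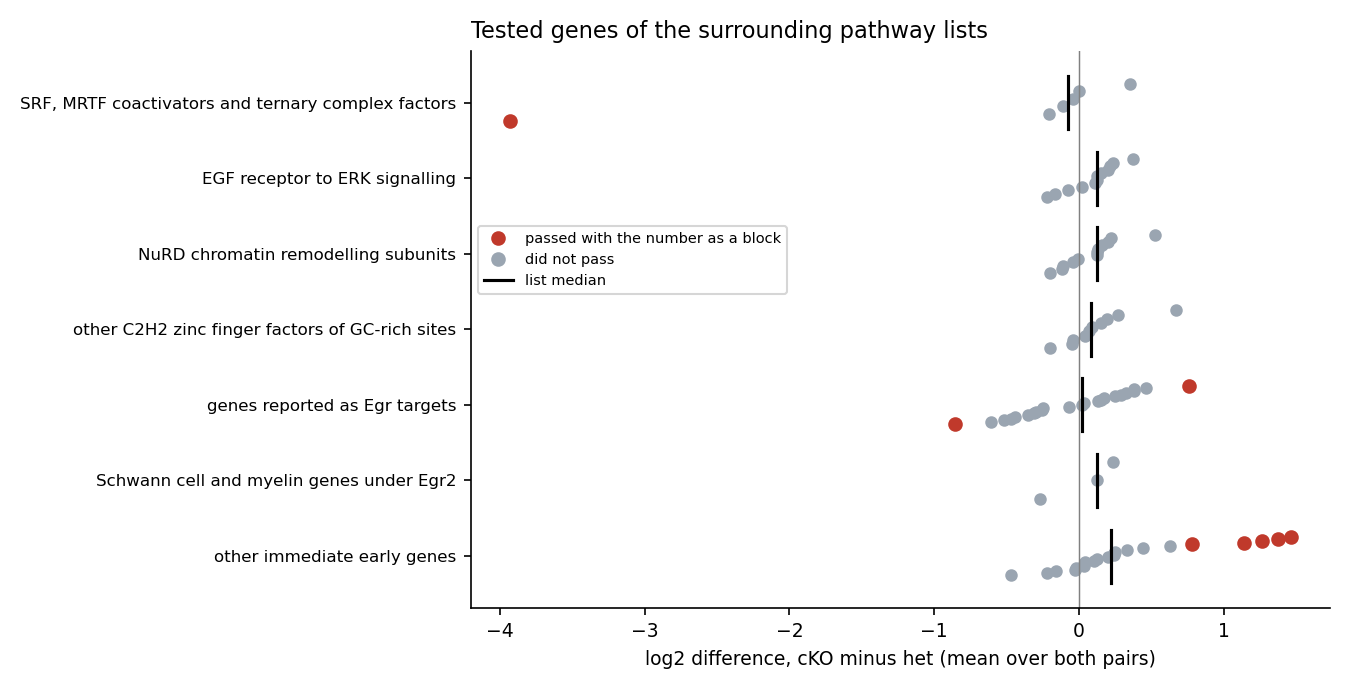
Each point is a tested gene of a list, at its log2 difference, cKO minus het, averaged over both pairs; red points passed in limma with the number as a block and black bars are list medians. Srf lies far below the other regulators, 5 immediate early genes lie above 0.7, and the Egr target list spreads to both sides of its median of 0.02.

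Other cell types of skin use Egr2, above all Schwann cells, where it drives myelin genes. Of the 4 Schwann cell markers analysed 0 passed the filter, and their summed signal was 175 and 121 in Ko_1210 and KO_1261, against 206 and 162 in het_1210 and het_1261. Sox10, which defines these cells and melanocytes, had 91.8 and 45.3 in Ko_1210 and KO_1261, against 37.6 and 45.9 in het_1210 and het_1261. Foxd3, another of these markers, had 68.9 and 32.5 in Ko_1210 and KO_1261, against 133 and 47.0 in het_1210 and het_1261. Unlike Sox10 and Foxd3, the myelin genes Mag and Gjb1 were below 65.9 on all arrays. Of 9 genes that Egr2 acts on or with in these cells, 3 were tested and 0 passed in limma in either fit: Pmp22, Mbp and Erbb3, with a median of 0.12. Immune cells can express Egr genes as well. Of 7 immune markers 2 were tested and both were lower, Laptm5 by 1.47 ± 0.36 (limma with the block, adjusted p = 0.0367, and 0.0682 with the robust prior). The summed immune signal was 307 and 413 in Ko_1210 and KO_1261, against 667 and 674 in het_1210 and het_1261. The pan-leukocyte gene Ptprc was at 23.5 to 25.3 in cKO and 24.6 to 35.7 in het, below the filter, and the T cell genes Cd3e and Cd3g were below 20 on all arrays. The myeloid genes Lyz2 and Tyrobp were not tested either. Lyz2 had 27.6 and 43.2 in Ko_1210 and KO_1261, against 119 and 71.0 in het_1210 and het_1261, both het arrays above 65.9. Tyrobp had 10.1 and 68.9 in Ko_1210 and KO_1261, against 65.3 and 78.2 in het_1210 and het_1261. Their part in the Egr differences was not tested.

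Markers of further cell types were compared in the same way, and most of them did not pass. The 8 fibroblast markers had a median of -0.63 (-0.97 and -0.21), with 6 lower and 2 higher. Of these, 3 passed with the block, Col3a1, Twist2 and Vim, of which 0 passed with the robust prior added. Of all tested genes 0.624% were called lower with the block. Col1a1 differed by -0.71 ± 0.20, Dcn by 0.06 and Pdgfra by 0.75 ± 0.43, with 0.64 within the first pair and 0.87 within the second pair, and none of them passed. The summed fibroblast signal was 34678 and 36063 in Ko_1210 and KO_1261, against 46478 and 39253 in het_1210 and het_1261.

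Of 6 tested suprabasal markers 4 were lower and 3 passed with the block, Krt1, Krt10 and Sbsn, with a list median of -0.39 (-0.56 and -0.42). For these and the next list too, the share of all tested genes called lower was 0.624%. The cornified envelope genes Ivl and Lor did not pass and turned sign between the pairs, with 1.75 and 1.68 within the first pair and -0.78 and -0.75 within the second pair. Flg, which was not tested, had signals of 3.62 and 11.2 in Ko_1210 and KO_1261, against 39.3 and 144 in het_1210 and het_1261. Of 6 hair follicle placode markers 4 were lower and Lhx2 passed, at -1.21 ± 0.25 (limma adjusted p = 0.00587), while Shh (-0.54 ± 0.20) and Wnt10b (-0.32 ± 0.23) did not. All 5 tested melanocyte and all 4 tested endothelial markers were below 0, among them Dct (-0.73 ± 0.26), Tyr (-0.51 ± 0.52), Kit (-0.41 ± 0.42) and Cdh5 (-0.55 ± 0.49), and 0 of them passed in limma with or without the block. With no variance trend 0 of these marker calls held (limma adjusted p from 0.736 to 0.749). Of 7 basal markers 4 were higher and 3 lower, with a median of 0.09, and neither Krt15 (-0.18 ± 0.12) nor Itgb4 (0.24 ± 0.15) passed. Their part in the Egr differences was not tested.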

How the data were processed

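Per the labels' protocols, Trizol RNA received a biotin label in a 3' IVT reaction. Each deposited value is the linear intensity of a probe set on an array, which the authors computed by MAS5 (per the submitters' processing notes, with no version given). Of 45101 probe sets, 64 controls were left out. Symbols were the platform annotation's, brought up to date by gene identifier: 34945 probe sets had 1 symbol, 932 several and 9160 none. Of 166 list memberships 152 matched a named gene, and the others were not analysed here.

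Values were transformed as log2(signal + 1). The 22518 probe sets above the median were tested with limma 3.58.1 in R 4.3.3 (eBayes with a variance trend, two-sided, Benjamini-Hochberg over all of them, threshold 0.05), without a block, and beside it with the title number as a block, because spike-in controls separated the numbers. Errors after ± on a difference are standard errors of the fit with the block. A gene of a list was represented by its brightest tested probe set. The genes and lists were chosen with earlier results of these data known. From each list up to 3 genes with the largest difference and the same sign in both pairs were named. For each tested Egr or Nab gene the 3 tested genes nearest in pattern were named. Regulators, Atf3, Ier3, Arc, Col3a1, Vim, Dcn, Ivl, Lor, Flg, Ptprc, Cd3e, Cd3g, Lyz2, Tyrobp, Pmp22, Sox10, Foxd3, Mag and Gjb1 were named besides. Promoter windows were RefSeq's. Only 2 arrays per group limit the precision. Figures used matplotlib 3.10.9 in Python 3.11.15.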

Additional observations from a re-analysis of the deposited data

Results flagged for a closer look

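Several differences had opposite signs in the arrays of the 2 pairs or of the 2 groups, each with 1 array on either side, and the change was not tested. For Egr2 the difference the second pair minus the first was -0.30 within cKO and 2.02 within het, so that the cKO minus het differences lay -2.32 apart. Egr4 had -0.07 within cKO and 2.62 within het, a change of -2.70, on signals below the filter. Egr3 had -0.50 within cKO and 0.06 within het on its brighter probe set, a change of -0.55, although its cKO minus het difference was negative in both pairs. The dimmer Egr3 probe set had the same sign in both groups, -1.13 within cKO and -0.68 within het.

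Nab2 stood out on both counts: cKO minus het was 0.19 within the first pair and -0.46 within the second pair, a change of -0.65, and the second pair minus the first was -0.63 within cKO and 0.02 within het. For Nab1 cKO minus het was 0.05 within the first pair and -0.10 within the second pair, a change of -0.16, which is below the median gap of 0.31 over tested probe sets.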

How the results depend on the processing

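The 4 Egr differences stayed below 0 under a pseudocount of 16, median centring, quantile normalization and with any 1 array left out. Both cKO arrays lay below both het arrays, so neither the pseudocount nor leaving out an array could turn this sign. Only the sizes of these differences are informative there. With 1 array left out Egr1 ranged from -3.05 to -1.20, Egr2 from -3.93 to -1.91, Egr3 from -2.05 to -1.55 and Egr4 from -2.84 to -0.21. Egr1 was -3.05 without het_1210 and -1.20 without het_1261, since het_1261 was its highest array; Egr2 was likewise -3.93 without het_1210 and -1.91 without het_1261, and Egr4 was -0.21 without het_1261 and -0.90 with a pseudocount of 16. The mean over both Egr3 probe sets was -1.36. Nab1 had no stable sign: it was 0.10 under median centring and ranged from -0.35 to 0.30 with 1 array left out, and Nab2 from -0.45 to 0.18. Median centring moved the median of all tested probe sets from -0.01 to 0.11.

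The count of probe sets passing between cKO and het was 0 in limma without a block under each planned scaling, filter and prior. With the replicate block it was 194, 84 with a robust prior added, 109 with median centring added and 0 with no variance trend (1505 at an unadjusted p under 0.05); these 3 were added after the data were seen. Leaving out 1 array gave counts from 0 to 5: 5 lower without Ko_1210 and 3 lower without KO_1261. Deviations of same-numbered arrays correlated at 0.755, yet nothing in the labels makes them the same litter or animal, and 2 pairs cannot settle it; the block leaves the member differences as they are. The count between the pairs was 7788, 4920 with a stricter filter (the brightest 25% of probe sets), where fewer probe sets were tested, and 2728 with no variance trend, for which the cause was not tested. It was 4470 higher and 3318 lower as deposited, 3010 and 6370 under median centring, and 3868 and 4401 under quantile normalization. With 1 array left out this comparison has no residual degrees of freedom and was not run.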
